A study of Homo sapiens with 10 samples.

Results

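RNA of 10 nucleic acid sensor genes and their partners was compared between HCT116 cells and DNMT1 KO cells. The genes were chosen by name, as genes whose products detect RNA or DNA inside the cell, relay that detection towards interferon or respond to double-stranded RNA, and they are IFIH1, RIGI, DHX58, TLR3, MAVS, EIF2AK2, ADAR, CGAS, STING1 and ZBP1. The choice was made with earlier results of these data known. All 10 genes were found among the 58884 genes of the count tables. HCT116 is a human colorectal carcinoma line, here with the genotype label WT (6 libraries: replicates 1, 2, 3, 7, 8 and 9). DNMT1 KO was derived from it by targeting DNMT1, whose enzyme copies DNA methylation after replication (4 libraries: replicates 1 to 4). According to the study, the derivative still makes a truncated DNMT1, so it is a hypomorph, and it is a single established line received from another laboratory. Both lines were grown in the same medium with no further treatment, and the libraries were made from poly(A)-selected RNA.

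RIG-I (the product of RIGI, formerly DDX58) and MDA5 (IFIH1) are cytosolic helicases that bind double-stranded RNA and signal through the mitochondrial adaptor MAVS, while LGP2 (DHX58) belongs to the same family but lacks the signalling domains and modulates the other two. TLR3 senses double-stranded RNA in endosomes, PKR (EIF2AK2) halts translation when it binds double-stranded RNA, and ADAR edits double-stranded RNA so that it is less readily sensed. cGAS (CGAS) binds cytosolic DNA and makes the messenger that activates STING (STING1), and ZBP1 binds nucleic acids in the Z conformation. Many of these genes are themselves induced by interferon, so sensors can stand both upstream and downstream of that response.

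DNMT1 RNA was 153 ± 64.2 CPM (counts per 1000000 of the scaled library total; SD, n = 6) in HCT116 and 19.4 ± 3.68 CPM (SD, n = 4) in DNMT1 KO, with no overlap between the groups (edgeR quasi-likelihood log2 fold change -2.97, adjusted p = 1.7e-05). The HCT116 libraries held 35418732 to 85991812 counts and the DNMT1 KO libraries 26700853 to 55732013. The labels place replicate 1 of both groups in batch 1, replicates 2 and 3 of both groups in batch 2, DNMT1 KO replicate 4 in batch 3 and HCT116 replicates 7, 8 and 9 in batch 4, so batches 3 and 4 cannot be told apart from the groups. DNMT1 KO replicate 4 was the shallowest library and stood apart in its low counts, since 39.9% of counts from 1 to 10 were even numbers there against 64.4 to 70.0% in the other 9 libraries. The epithelial markers EPCAM, KRT8, KRT18, CDH1 and CLDN7 were present in all libraries and fell in DNMT1 KO (5 of 7 tested, beside 6.49% of all genes tested). KRT8, for example, went from 1075 to 2272 CPM in HCT116 to 157 to 310 CPM. The other tested epithelial markers, KRT19 and CDX2, were not called. KRT19 was lower by a log2 fold change of -1.06 (edgeR adjusted p = 0.0763). CDX2 was 18.0 to 41.4 CPM in HCT116 and 33.9 to 40.0 CPM in DNMT1 KO. The 7 immune cell markers reported here, PTPRC, CD3E, CD14, CD68, ITGAM, LYZ and HLA-DRA, each stayed at or below 0.337 CPM in every library, and HLA-DRA was counted 0 in all of them. Fibroblast markers summed to 6.40 to 19.8 and 11.8 to 20.3 CPM over 6 genes, of which PDGFRB and LUM rose (3 tested). The third tested, COL1A1, made up most of the HCT116 sums. COL1A1 was 6.15 to 19.5 CPM in HCT116 and 2.90 to 14.1 CPM in DNMT1 KO. It was not called, but was called lower without DNMT1 KO replicate 3. The part of either cell type in the results was not tested.

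Promoter sequence is shown first for the 4 genes whose supplied window held a match to either pattern described below. TLR3 is among them, although its RNA did not pass the test in either direction. The IFIH1, TLR3 and EIF2AK2 windows hold the letters of the interferon response element. The RIGI window holds only a similar pattern with a shorter spacing, which the IFIH1 window holds as well. RefSeq windows on GRCh38.p14 (250 bases before and 50 after a start site) were supplied for 6 of the 10 genes, 8 windows in all. Each was identical to the hg38 sequence at its position. No window was supplied for DHX58, the gene that changed most, nor for CGAS, STING1 and ZBP1. The core of the interferon-stimulated response element was searched as GAAANNGAA on both strands, and 8.11% of all 35116 windows held it. A shifted pattern with a shorter spacing between its repeats, GAANNGAAA, was added after the RIGI sequence had been seen, and 7.66% of windows held it. These 2 patterns can overlap. Each sequence is a 60-base stretch read 5′ to 3′ on the strand of its gene, and capitals mark the matches, which read in reverse (TTC first) where they lie on the opposite strand. The IFIH1 stretch is chr2:162318814-162318873 (minus strand), the RIGI stretch chr9:32526365-32526424 (minus strand), the TLR3 stretch chr4:186069102-186069161 (plus strand) and the EIF2AK2 stretch chr2:37156978-37157037 (minus strand).
IFIH1: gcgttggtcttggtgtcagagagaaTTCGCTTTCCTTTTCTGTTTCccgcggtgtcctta
RIGI: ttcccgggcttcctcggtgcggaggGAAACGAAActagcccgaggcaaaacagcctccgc
TLR3: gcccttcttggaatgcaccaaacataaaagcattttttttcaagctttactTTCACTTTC
EIF2AK2: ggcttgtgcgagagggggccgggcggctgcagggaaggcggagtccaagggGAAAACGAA

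The IFIH1 window held 4 matches to GAAANNGAA, of which the 3 shown overlap each other and begin at positions -164, -158 and -152 from the start site, and the fourth begins at -21. The IFIH1 window also held 1 match to GAANNGAAA, at position -26, outside the stretch shown. RIGI had no match to GAAANNGAA and 1 to GAANNGAAA, at position -203. The TLR3 and EIF2AK2 matches cross the start site, beginning at -3 and -6. TLR3 also held 2 matches to the gamma-activated site TTCNNNGAA, a pattern found in 7.66% of windows. The MAVS and ADAR windows held none of the 3 patterns. CG dinucleotides, the sites that DNMT1 methylates, numbered 12 in the IFIH1 window, 27 in RIGI, 5 in TLR3, 34 in MAVS, 30 in EIF2AK2 and 13 or 14 in the 3 ADAR windows, beside a median of 14 over all windows. DNA methylation was not analysed here.

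Of the 10 genes, 8 had enough counts to be tested, and 4 of these rose in DNMT1 KO by the threshold used throughout (adjusted p below 0.05 with a log2 fold change over 1): IFIH1, RIGI, DHX58 and EIF2AK2. None fell by edgeR, nor by DESeq2, which called the same number higher, and 6 of the 8 had an unadjusted edgeR p under 0.05 (STING1 being the one of these that was lower). Over all 19279 genes tested, 7.42% rose and 6.49% fell by the same rule (1431 and 1251 genes). With library totals alone in place of the TMM scaling, the log2 fold change of the median gene shifted by 0.21, and 1878 rose and 956 fell. The median log2 fold change was 1.24 over the 8 sensor genes and -0.07 over all genes tested. The adaptors MAVS and STING1, the endosomal sensor TLR3 and the editing enzyme ADAR did not pass the test in either direction. CGAS and ZBP1 were at or near 0 counts. In such bulk libraries, more RNA per cell and more cells that carry the RNA cannot be told apart.

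**Figure D1:**
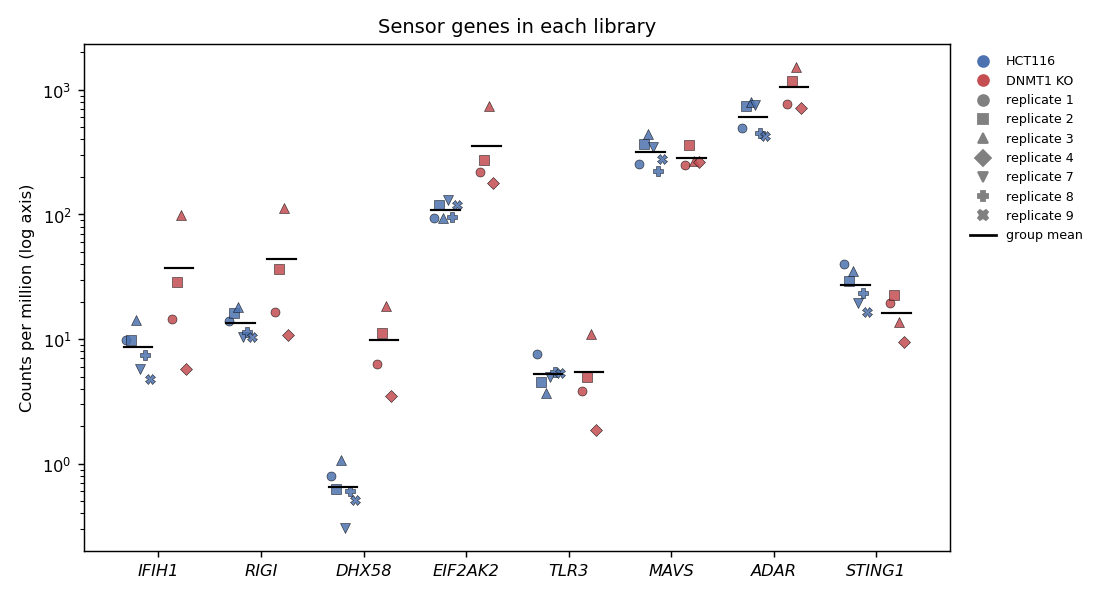
CPM (log axis) of the 8 tested sensor genes in every library. Blue marks are the 6 HCT116 libraries, red marks the 4 DNMT1 KO libraries, shapes are replicate numbers and black lines are group means. The DHX58 and EIF2AK2 groups do not overlap, and DNMT1 KO replicate 3 lies highest for 6 of the 8 genes.

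DHX58, encoding LGP2 (chromosome 17, positions 42101404 to 42112714 on hg38), changed most among the sensor genes. It was scarce in HCT116, from 0.306 through a median of 0.618 to 1.07 CPM (199 counts in all 6 libraries). In DNMT1 KO it was 6.29 CPM in replicate 1, 11.1 CPM in replicate 2, 18.3 CPM in replicate 3 and 3.51 CPM in replicate 4. All 4 DNMT1 KO libraries were above all HCT116 libraries. The mean was 15.2-fold higher (edgeR log2 value 3.92, SE 0.46, adjusted p = 2.6e-05). The log2 ratio was 2.97 in batch 1, with 1 library per group, and 4.12 in batch 2 (edgeR adjusted p = 0.0052). The call held in all 20 alternative fits, in which the log2 fold change ran from 3.45 to 4.20.

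IFIH1, encoding MDA5 (chromosome 2, positions 162267074 to 162318703), was detected in both lines. It ran from 4.83 through a median of 8.63 to 14.2 CPM in HCT116. In DNMT1 KO it was 14.6 CPM in replicate 1, 28.9 CPM in replicate 2, 99.3 CPM in replicate 3 and 5.765 CPM in replicate 4. Replicate 4 lay inside the HCT116 range, replicate 1 just above it, and replicate 3 was 17.2 times replicate 4. This was a log2 fold change of 2.11 ± 0.57 (SE; edgeR adjusted p = 0.0194). Without DNMT1 KO replicate 3 it was 0.95 (SE 0.45, edgeR adjusted p = 0.198) and no longer passed. The log2 ratio was 0.58 in batch 1 and 2.42 in batch 2 (edgeR adjusted p = 0.0515). Fitting batch as a term gave 1.83 (edgeR adjusted p = 0.00998). Batches 3 and 4 each hold a single group, so that value rests on batches 1 and 2. In those batches alone with the same term it was also 1.83 and did not pass (edgeR adjusted p = 0.0545).

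RIGI, encoding RIG-I (chromosome 9, positions 32455302 to 32526208), was likewise detected in both lines. It ran from 10.4 through a median of 12.8 to 18.1 CPM in HCT116. In DNMT1 KO it was 16.6 CPM in replicate 1, 36.8 CPM in replicate 2, 113 CPM in replicate 3 and 10.8 CPM in replicate 4. Only replicates 2 and 3 were above the HCT116 range, and both belong to batch 2. This was a log2 fold change of 1.72 ± 0.49 (SE; edgeR adjusted p = 0.0261), which became 0.69 ± 0.36 (SE; edgeR adjusted p = 0.247) without DNMT1 KO replicate 3. The log2 ratio was 0.24 in batch 1 and 2.13 in batch 2 (edgeR adjusted p = 0.0553). The RIGI call was also lost without HCT116 replicate 7 (log2 fold change 1.66, edgeR adjusted p = 0.058) and without HCT116 replicate 8 (1.68, adjusted p = 0.0527), so it held in 14 of 20 alternatives, against 17 of 20 for IFIH1.

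The make-up of the 3 RIG-I-like receptors shifted towards DHX58. Per kilobase of exon, DHX58 made up 2.305 to 4.09% of the RNA of the 3 genes in HCT116. It made up 20.4% in DNMT1 KO replicate 1, 17.6% in replicate 2, 9.86% in replicate 3 and 21.0% in replicate 4. Every DNMT1 KO share was above every HCT116 share, and the lowest was in replicate 3, where IFIH1 and RIGI RNA was most abundant. The IFIH1 share lay between 28.4 and 40% in HCT116 and between 25.8 and 40.0% in DNMT1 KO, whereas the RIGI share ran from 56.0 to 67.5% in HCT116 and from 44.2 to 53.2% in DNMT1 KO.

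**Figure D2:**
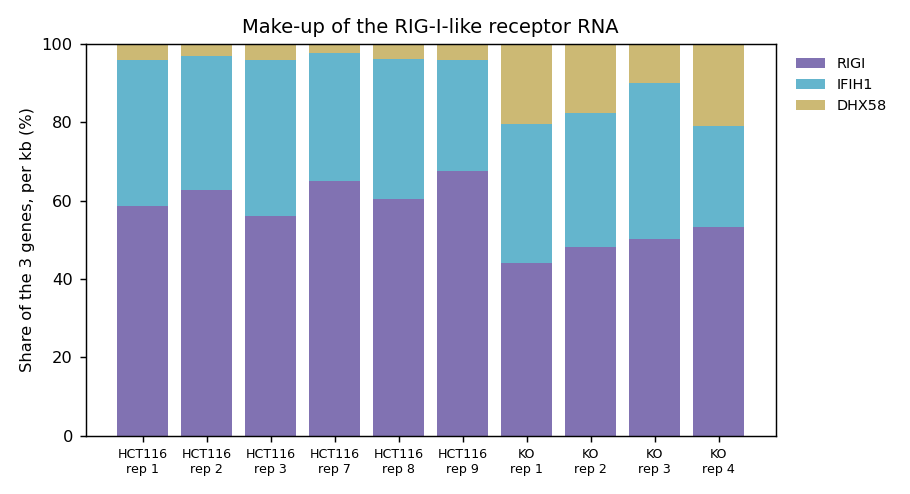
Share (%) of each RIG-I-like receptor gene in the summed CPM per kilobase of RIGI, IFIH1 and DHX58, 1 bar per library (KO is DNMT1 KO, rep is replicate). DHX58 takes at most 4.09% in the HCT116 libraries and at least 9.86% in the DNMT1 KO libraries.

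EIF2AK2, encoding PKR (chromosome 2, positions 37099210 to 37157065), was per kilobase the most abundant of the 4 genes that rose. It ran from 93.6 through a median of 107 to 130 CPM in HCT116, a narrow range. In DNMT1 KO it was 221 CPM in replicate 1, 276 CPM in replicate 2, 737 CPM in replicate 3 and 178 CPM in replicate 4. The groups did not overlap. This was a log2 fold change of 1.70 ± 0.34 (SE; edgeR adjusted p = 0.0026), and it stayed past the threshold without DNMT1 KO replicate 3 (1.08, SE 0.23, edgeR adjusted p = 0.0052) and in the other 19 alternatives. It was 1.24 in batch 1 and 2.25 in batch 2 (edgeR adjusted p = 0.0398). Of its exon bases, 4.05% overlap GPATCH11 or ARL14EPP1 on the opposite strand, and no strand option of the counting is stated.

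Thus 2 of the 8 tested genes, DHX58 and EIF2AK2, had all 4 DNMT1 KO libraries above all 6 HCT116 libraries, an arrangement shown by 8.39% of all genes tested. Without DNMT1 KO replicate 3, these 2 were the sensor genes that rose, beside 6.63% of the 19418 genes then tested.

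**Figure D3:**
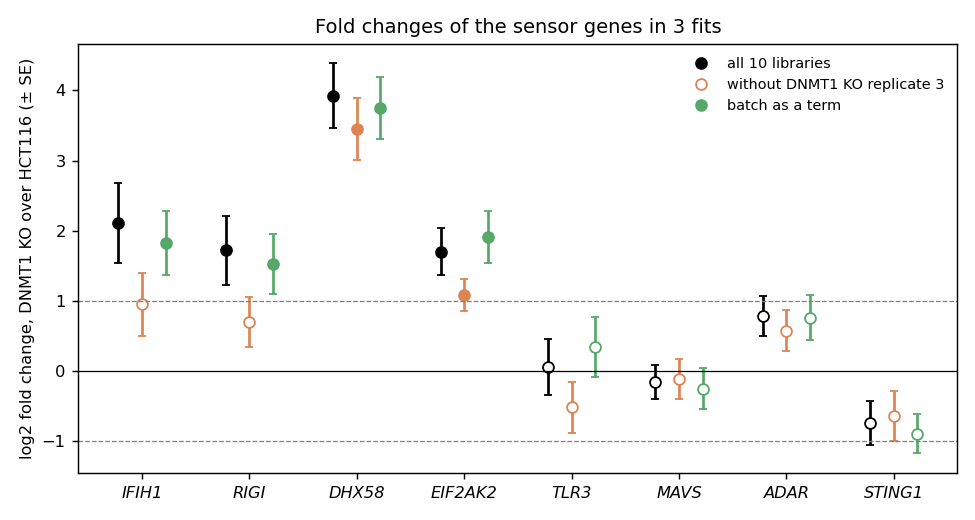
edgeR log2 fold change of DNMT1 KO over HCT116 (± SE) for the 8 tested sensor genes with all 10 libraries, without DNMT1 KO replicate 3 and with batch as a term. With batch as a term the fold change rests on batches 1 and 2, the only ones with both groups. In those alone with that term, IFIH1 and RIGI did not pass (edgeR adjusted p = 0.0545 and 0.0829). Filled marks passed an adjusted p of 0.05 and a log2 fold change of 1 in size (dashed lines); IFIH1 and RIGI are open without replicate 3, at 0.95 and 0.69, whereas DHX58 and EIF2AK2 are filled in all 3 fits.

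ADAR, the editing enzyme (chromosome 1, positions 154582057 to 154628013), was per kilobase the most abundant of the sensor genes. It ran from 429 through a median of 617 to 799 CPM in HCT116. In DNMT1 KO it was 776 CPM in replicate 1, 1179 CPM in replicate 2, 1524 CPM in replicate 3 and 721 CPM in replicate 4. Replicates 1 and 4 lay inside the HCT116 range. The increase was 0.78 ± 0.29 on the log2 scale (SE; edgeR adjusted p = 0.0793). With library totals alone it was 1.00 (edgeR adjusted p = 0.0252), the only one of 20 alternatives in which ADAR passed, and 0.80 relative to the shift of the median gene under that scaling.

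TLR3 (chromosome 4, positions 186069152 to 186088069) had nearly equal means in the 2 lines. It ran from 3.69 through a median of 5.14 to 7.67 CPM in HCT116. In DNMT1 KO it was 3.84 CPM in replicate 1, 5.01 CPM in replicate 2, 11.0 CPM in replicate 3 and 1.88 CPM in replicate 4. The DNMT1 KO libraries thus lay on both sides of the HCT116 range, with replicate 3 above it and replicate 4 below it. The difference was 0.05 ± 0.40 on the log2 scale (SE; edgeR adjusted p = 0.949) and turned to -0.52 (SE 0.36, edgeR adjusted p = 0.408) without DNMT1 KO replicate 3.

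The adaptors did not follow the helicases. MAVS (chromosome 20, positions 3846799 to 3876123) ran from 225 through a median of 311 to 446 CPM in HCT116, and was 248, 359, 269 and 261 CPM in DNMT1 KO replicates 1 to 4. All 4 values lay inside the HCT116 range (log2 difference -0.16 ± 0.24, SE; edgeR adjusted p = 0.717; 0.04 with library totals alone), and DNMT1 KO replicate 3 was not set apart. STING1 (chromosome 5, positions 139475533 to 139482935) ran from 16.4 through a median of 26.3 to 40.3 CPM in HCT116, and was 19.5, 22.6, 13.8 and 9.45 CPM in DNMT1 KO replicates 1 to 4. Replicates 3 and 4 lay below the HCT116 range. The difference was -0.74 ± 0.32 on the log2 scale (SE; edgeR adjusted p = 0.139). Fitting batch as a term gave -0.90 ± 0.28 (SE, edgeR adjusted p = 0.0363), which passed the p but not the fold limit. In batches 1 and 2 alone with that term it was -0.895 and passed neither limit (edgeR adjusted p = 0.0613).

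CGAS (chromosome 6, positions 73413515 to 73452297) had 10 counts over the 6 HCT116 libraries and 5 over the 4 DNMT1 KO libraries. The ratio of DNMT1 KO to HCT116 was 0.896 with a 95% interval of 0.240 to 2.88 (exact binomial, counting error only), so a difference was not detectable at this depth. ZBP1 (chromosome 20, positions 57603846 to 57620576) had 0 counts in all HCT116 libraries, which allows up to 0.00891 CPM over the group (3 counts). It had 8 counts in DNMT1 KO replicate 3 and 0 in the other 3 DNMT1 KO libraries. Since low counts were mostly even numbers in all libraries but DNMT1 KO replicate 4, and every CGAS count above 0 outside that library was even, counts may not be independent of each other, and this interval and limit are then too narrow.

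The order of the levels differed between the lines. Per kilobase of exon, mean levels in HCT116 ran from ADAR (62.9 ± 17.6 CPM per kb, SD, n = 6) through MAVS (27.1 ± 7.01), EIF2AK2 (10.1 ± 1.52), STING1 (5.69 ± 1.92), RIGI (2.90 ± 0.690), IFIH1 (1.69 ± 0.666) and TLR3 (0.782 ± 0.199) to DHX58 (0.171 ± 0.0681). All 6 HCT116 libraries gave this order, although the ranges of STING1 and RIGI, of RIGI and IFIH1 and of IFIH1 and TLR3 overlapped. In DNMT1 KO the mean level of EIF2AK2 (32.8 ± 24.1 CPM per kb, SD, n = 4) lay above that of MAVS (24.2 ± 4.28), but only 1 of 4 libraries gave that order. RIGI (9.54 ± 10.1 CPM per kb) and IFIH1 (7.27 ± 8.32) had means above STING1 (3.40 ± 1.22), with overlapping ranges and IFIH1 above STING1 in 2 of 4 libraries. DHX58 (2.56 ± 1.69 CPM per kb) was above TLR3 (0.809 ± 0.587) in 4 of 4 libraries, the reverse of HCT116.

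Most of the sensor genes shared one order among the DNMT1 KO libraries. For 6 of the 8 tested genes, IFIH1, RIGI, DHX58, EIF2AK2, TLR3 and ADAR, replicate 3 was the highest DNMT1 KO library, followed by replicates 2, 1 and 4. Over all genes tested, replicate 3 was the highest of the 4 in 36.5%, and that whole order was seen in 7.52%. The order was noted in these values and then counted, and it has no test. Relative to the HCT116 mean, IFIH1 was 11.5-fold in replicate 3 and 0.666-fold in replicate 4, RIGI was 8.39-fold and 0.803-fold, and EIF2AK2 was 6.79-fold and 1.64-fold. MAVS and STING1 had their highest DNMT1 KO value in replicate 2.

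Interferon-stimulated genes moved in the same order. Of 20 listed, 16 were tested, 12 rose and none fell by edgeR, beside 7.42% and 6.49% of all genes tested. Of the 16, 14 had an unadjusted edgeR p under 0.05, and DESeq2 called 15 of 19 higher and 0 lower. The list had a median log2 fold change of 2.20. When DNMT1 KO replicate 3 was left out, 9 of 16 rose, beside 6.63% of all genes then tested. The summed level of the listed genes was 221 to 288 CPM in HCT116 replicates 1, 2 and 3 and 145 to 192 CPM in replicates 7, 8 and 9 (batch 4). The count that rose was 12 with batch as a term and 10 with that term in batches 1 and 2 alone, without batch 4. The summed level was 554, 1073, 2288 and 505 CPM in DNMT1 KO replicates 1 to 4. Replicate 3 was the highest DNMT1 KO library for 15 of the 16, and 14 of 16 had the order 3, 2, 1, 4. The median gene of the list was 1.70-fold over its HCT116 mean in DNMT1 KO replicate 1, 2.96-fold in replicate 2, 8.14-fold in replicate 3 and 1.25-fold in replicate 4. BST2, a surface protein that tethers virions, rose from 0.780 to 7.91 CPM in HCT116 to 192 to 268 CPM in DNMT1 KO, with little spread among the DNMT1 KO libraries. IFITM1, which blocks viral entry, rose from 0.441 to 9.51 CPM to 64 to 325 CPM. IFI44L and XAF1 were almost uncounted in HCT116 (at most 0.0535 and 0 CPM) and reached 36.5 and 4.95 CPM in DNMT1 KO replicate 3. Whether sensor RNA and interferon-stimulated RNA depend on each other in these libraries was not tested.

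**Figure D4:**
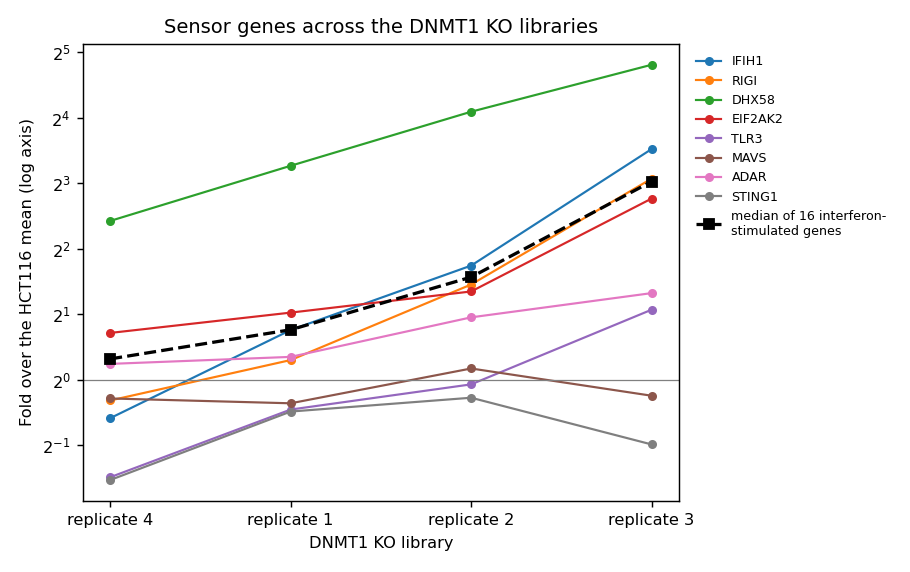
Level in each DNMT1 KO library relative to the HCT116 mean (log axis) for the 8 tested sensor genes (coloured lines) and the median of 16 interferon-stimulated genes (black dashed line, after adding 0.5 CPM). IFIH1, RIGI, DHX58, EIF2AK2, TLR3 and ADAR rise with that median from replicate 4 to replicate 3, where IFIH1 is at 11.5-fold and the median at 8.14-fold; MAVS and STING1 do not.

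HCT116 libraries of different batches were compared as a background. Mean IFIH1 was 6.04 CPM in batch 4 and 11.3 CPM in batches 1 and 2 (log2 difference -0.93, SE 0.35, edgeR adjusted p = 0.109). Mean RIGI was 10.8 CPM in batch 4 and 16.1 CPM in batches 1 and 2 (log2 difference -0.60, SE 0.31, edgeR adjusted p = 0.236), and mean STING1 was 19.8 and 34.8 CPM (-0.84, SE 0.30, adjusted p = 0.0983). For IFIH1, RIGI, DHX58 and STING1 the 3 libraries of batch 4 all lay below the 3 of batches 1 and 2. Of the 8 sensor genes tested, none was called between these HCT116 libraries, beside 8.03% of the 18656 genes tested, and 2 had an unadjusted p under 0.05. Of 14 interferon-stimulated genes tested between the same libraries, 5 were called lower in batch 4 (IFIT2, IFITM1, BST2, PARP9 and DTX3L) and 0 higher, with a median log2 difference of -0.98. Without HCT116 replicate 1, IFIH1 was called lower in batch 4 (log2 difference -1.02, edgeR adjusted p = 0.0464). EIF2AK2 was 115 CPM in batch 4 and 102 CPM in batches 1 and 2 (log2 difference 0.15, SE 0.30, edgeR adjusted p = 0.795).

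Among 24 other genes of RNA sensing, 21 were tested, 6 rose and none fell by edgeR, beside 7.42% and 6.49% of all genes tested. The list had a median log2 fold change of 0.23, against -0.07 over all genes tested. An unadjusted p under 0.05 was seen for 8, and DESeq2 called 7 higher and 0 lower. The oligoadenylate synthetase family, whose active members make the messenger that activates RNase L, supplied 4 of the 6. OAS2 rose from 0 to 0.124 CPM in HCT116 to 1.28 to 24.4 CPM in DNMT1 KO (edgeR adjusted p = 6.1e-05), and OAS1 rose from 0.0139 to 1.28 CPM to 3.82 to 53.3 CPM (adjusted p = 0.000497). OAS3 rose from 32.1 to 128 CPM to 125 to 683 CPM (edgeR adjusted p = 0.00776), with an overlap of the groups. OASL rose by a log2 fold change of 2.05 (edgeR adjusted p = 0.0196) and lost its call without DNMT1 KO replicate 3. IFIT1, which binds foreign 5′ ends of RNA, rose from 5.47 to 15.8 CPM to 16.5 to 175 CPM (edgeR adjusted p = 0.000498), and MYD88, a Toll-like receptor adaptor, rose from 34.8 to 56.6 CPM to 74.6 to 117 CPM (edgeR adjusted p = 0.0026). Without DNMT1 KO replicate 3, 5 of 21 rose, beside 6.63% of all genes then tested.

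Of 19 other genes of DNA sensing, 14 were tested, none rose and 1 fell (median log2 fold change 0.05): RNASEH2B, a subunit of RNase H2, from 5.77 to 20.8 CPM in HCT116 to 4.17 to 7.22 CPM in DNMT1 KO (log2 fold change -1.27, edgeR adjusted p = 0.0198). Over all genes tested, 7.42% rose and 6.49% fell, so neither this list nor the next stands far from the whole. Of 17 genes that relay the signal from adaptors to interferon, 16 were tested, none rose and 1 fell (median 0.01): the kinase gene IKBKE, from 2.86 to 4.93 CPM to 1.40 to 2.66 CPM (log2 fold change -1.02, edgeR adjusted p = 0.0394). An unadjusted p under 0.05 was seen for 2 genes of each list, and DESeq2 called 1 DNA sensing gene higher and 1 lower and no relay gene. RNASEH2B kept its call in 13 and IKBKE in 4 of 20 alternatives, and neither passed without DNMT1 KO replicate 3. The gene that DESeq2 called higher was IFI16, a DNA sensor that the filter on low counts kept out of the main edgeR test. IFI16 had 26 counts over the 6 HCT116 libraries, and 4, 29, 179 and 1 in DNMT1 KO replicates 1 to 4. It was called by DESeq2 (log2 fold change 3.33, adjusted p = 0.00149) and by edgeR without the filter, but not in batch 2 alone (edgeR adjusted p = 0.0831). SAMHD1 passed the p but not the fold limit (log2 fold change 0.87, edgeR adjusted p = 0.0371). All its DNMT1 KO values were above all its HCT116 values, and it was called higher in 4 of 20 alternatives.

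The interferons were barely counted. Of 13 genes for interferon ligands and receptors, 6 were tested and none passed by edgeR (median log2 fold change 0.16). Of these, 1 had an unadjusted p under 0.05, and DESeq2, which tested 12, called 1 lower. IFNB1 had 10 counts over the 6 HCT116 libraries, and 0, 10, 16 and 1 in DNMT1 KO replicates 1 to 4. IFNL1 had 7 counts over the HCT116 libraries and 2, 10, 12 and 1 in those 4 DNMT1 KO libraries. IFNA1 had 0 in all 10 libraries. IFNE went the other way, with 86 counts over the HCT116 libraries and 0, 2, 2 and 0 in DNMT1 KO replicates 1 to 4. The filter on low counts kept IFNE out of the main edgeR test. It was called lower, also by DESeq2, in 6 of the 7 alternatives that tested it. SKIC2, TREX1 and AIM2 of the sensing lists were also counted 0 in all libraries.

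The genes nearest in pattern to each sensor gene that rose were sought among 14277 tested genes with a symbol and a mean of at least 1 CPM over the 10 libraries. The 10 sensor genes themselves were left out of the search. The measure was the root mean square difference of centred log2 CPM, after adding 0.5 CPM, over the 10 libraries. OASL (0.31), MX1 (0.36) and PRUNE2 (0.42) were nearest to IFIH1, where the median over genes was 1.32 (log2 units). MX1 (0.30), OASL (0.36) and LRRC37A3 (0.36) were nearest to RIGI. APOBEC3G (0.25), EDA2R (0.30) and DLK1 (0.34) were nearest to DHX58, and ITGA9 (0.24), ZC3H12B (0.33) and JAM2 (0.33) to EIF2AK2. The added 0.5 CPM narrows the differences of scarce genes. The log2 fold changes of APOBEC3G, EDA2R and DLK1 were 4.76, 7.78 and 6.67, against 3.92 for DHX58. OASL and MX1 thus stood in the lists of both IFIH1 and RIGI, and the lists of DHX58 and EIF2AK2 shared no gene with them. These lists are short, so the lack of a shared gene says little.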

How the data were processed

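RNA was measured in 6 HCT116 and 4 DNMT1 KO libraries, which the study describes as stranded, paired-end and from independent cultures. The authors trimmed reads with Trim Galore 0.4.1, mapped them to hg38 with bowtie2 and counted exonic reads per gene with featureCounts, and the deposited values are raw counts with no strand option stated. bowtie2 does not split reads across exon junctions. A further 3 HCT116 tables have no sample in the series' list and were not used.

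Counts were scaled by TMM and tested with edgeR 4.0.16 (quasi-likelihood, group as the only term, two-sided, Benjamini-Hochberg over 19279 genes). Genes were called at adjusted p below 0.05 with a change over 1 in size on the log2 scale. CPM divide by the TMM-scaled total. The test was also run on simulated counts with known fold changes, the same dispersion for every gene and no outlying library. That run cannot show how the test behaves where a single library stands apart. Members and gene lists were chosen with earlier results of these data known. The 10 members, from each other list up to 4 called genes per direction with at least 1 CPM, and the 3 genes nearest to each called member are named, and other genes named were chosen after their values were seen. Levels per length use the exon lengths in the deposited tables. The 20 alternatives changed scaling, filter, tool (DESeq2 1.42.0), batch handling or libraries. Intervals and floors cover counting error only. The result of 1 listed immune cell marker is not reported here.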

Additional observations from a re-analysis of the deposited data

Results flagged for a closer look

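Among 56 groups of values (30 named genes, groups of 4 or 6 libraries), 5 held a library far from the others by Dixon's criterion. For independent groups of normally distributed values it would flag about 1 in 20, or 2.8. These groups share the same libraries and many of the genes were named because they were called, so 5 cannot be weighed against 2.8. IFI44L was 36.54 CPM in DNMT1 KO replicate 3 and 0.278 to 3.09 CPM in the other 3 DNMT1 KO libraries. XAF1 was 4.946 CPM in the same library and 0.313 to 0.852 CPM in the others. IFIT1 was 15.76 CPM in HCT116 replicate 8 and 5.47 to 8.90 CPM in the other HCT116 libraries. CGAS was 0.0929 CPM in HCT116 replicate 8 and at most 0.0278 CPM in the other HCT116 libraries, and it was 0 in DNMT1 KO replicate 1 and 0.0317 to 0.0355 CPM in the other DNMT1 KO libraries, which for CGAS are differences of a few counts. None of the 8 tested sensor genes had such a library, but in groups of 4 libraries the criterion flags only a very large gap. EIF2AK2, for example, was 737 CPM in DNMT1 KO replicate 3 and 178 to 276 CPM in the other DNMT1 KO libraries without being flagged.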

How the results depend on the processing

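DHX58 and EIF2AK2 kept their calls in all 20 alternatives, and IFIH1 kept its direction in 20 and its call in 17. The count of sensor genes that rose was 4, and it was 2 with batches 1 and 2 and batch as a term and 2 in batch 2 alone, both with fewer libraries. With 1 library left out it ran from 2 to 4, the lowest without DNMT1 KO replicate 3. With 1 library left out, the TLR3 log2 fold change ran from -0.523 to 0.332, negative without DNMT1 KO replicate 3. The MAVS log2 fold change was 0.041 with library totals alone. In the comparison within HCT116, sensor genes called lower in batch 4 ran from 0 to 1 with 1 library left out. Over all alternatives, DNA sensing genes called higher numbered from 0 to 2 and lower from 0 to 1, relay genes called lower from 0 to 1, interferon ligand and receptor genes from 0 to 1 in each direction, RNA sensing genes called higher from 4 to 7, and interferon-stimulated genes called higher from 8 to 17. The causes were not tested.

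Groups share replicate numbers 1, 2 and 3, and deviations of same-numbered libraries correlated at 0.55, -0.27 and 0.37, so the numbers were not taken as pairs. With the replicate block, the RIGI log2 fold change was 1.35 (edgeR adjusted p = 0.0955), and 3 sensor genes rose. Few counts limit CGAS, ZBP1 and the interferons.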
